A study of Mus musculus with 6 samples.

Results

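The genes described here are 10 members of the machinery that builds and maintains blood vessels: the growth factor Vegfa and its receptors Kdr and Flt1, the ligands Angpt1 and Angpt2 and the receptors Tie1 and Tek, and the endothelial identity genes Pecam1, Cdh5 and Vwf. They were taken by symbol from a table of 55487 mouse gene IDs, and all 10 were among the 15666 genes with enough reads to test. The material was 6 whole grafts of B16F10, a pigmented mouse melanoma line, grown under the mucosa of the tongue in wild-type C57BL/6J mice with intact immunity. In 3 grafts the treatment was inhibition of the pain-sensing (nociceptive) nerves that supply lymph nodes (LN), and the other 3 were controls. The design text names 2 vectors that travel back along axons, both named for the nociceptor gene Trpv1 and injected into cervical LN 6 weeks before the melanoma cells. AAV2/retro-Trpv1-hM4D(Gi)-mCherry carries a designed receptor that quiets neurons, and AAV2/retro-Trpv1-mCherry a red fluorescent protein without it; the text does not say in words which group had which. According to the design text the mice received the receptor's ligand Deschloroclozapine 2 times per day for 12 days, whereas the sample labels call the controls vehicle-treated, so what the controls received is not settled here. Neither the age of the mice nor whether a library is 1 animal was given. The virus was injected into lymph nodes and not into the graft, and where it or the ligand acted was not tested here.

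Vegfa is secreted by many cells, tumour cells among them, and its gene is one of the classical targets of the hypoxia-inducible factors. It acts on endothelial cells through Kdr, the main signalling receptor, while Flt1 binds it more tightly, signals weakly and in its soluble form acts as a decoy. Angpt1, made mostly by cells around the vessel, activates Tek and keeps vessels quiet, Angpt2, made by endothelial cells themselves, usually opposes it where vessels are remodelled, and Tie1 is a partner receptor that modulates Tek. Pecam1 and Cdh5 are adhesion proteins of endothelial junctions, and Vwf is a clotting protein that endothelial cells store and release.

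Start-site sequences were matched for 5 of the 10 genes in RefSeq (GRCm38.p6): Vegfa, Kdr, Flt1, Tie1 and Tek. The 250 bases before the start site are shown for the ligand and for 3 receptors, since these receptors bind the ligands in question and took different values across the grafts. Capitals mark matches, on either strand, to the core of the hypoxia-inducible factor motif (ACGTG or GCGTG), the GC box (GGGCGG), an ETS motif (AGGAAG; ETS factors such as Erg and Fli1 are regulators of endothelial genes) and the cyclic AMP response element (TGACGTCA). The windows lie at chr17:46032378-46032627 for Vegfa, chr5:75978456-75978705 for Kdr and chr5:147726012-147726261 for Flt1, all on the minus strand, and at chr4:94739039-94739288 on the plus strand for Tek.
Vegfa: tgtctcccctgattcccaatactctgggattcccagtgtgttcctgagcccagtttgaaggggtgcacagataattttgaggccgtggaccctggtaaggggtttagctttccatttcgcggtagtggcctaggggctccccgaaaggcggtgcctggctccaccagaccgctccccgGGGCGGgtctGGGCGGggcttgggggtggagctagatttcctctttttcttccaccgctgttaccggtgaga
Kdr: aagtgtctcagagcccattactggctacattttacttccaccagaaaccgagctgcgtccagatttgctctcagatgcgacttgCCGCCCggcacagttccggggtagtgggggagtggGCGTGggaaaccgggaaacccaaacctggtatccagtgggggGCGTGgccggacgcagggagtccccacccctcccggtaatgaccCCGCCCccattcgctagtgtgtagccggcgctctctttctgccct
Flt1: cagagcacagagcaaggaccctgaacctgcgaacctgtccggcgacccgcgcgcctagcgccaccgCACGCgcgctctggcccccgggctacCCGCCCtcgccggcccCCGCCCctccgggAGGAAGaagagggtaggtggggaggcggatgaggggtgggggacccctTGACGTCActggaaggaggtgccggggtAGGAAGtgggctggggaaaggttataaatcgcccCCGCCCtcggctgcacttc
Tek: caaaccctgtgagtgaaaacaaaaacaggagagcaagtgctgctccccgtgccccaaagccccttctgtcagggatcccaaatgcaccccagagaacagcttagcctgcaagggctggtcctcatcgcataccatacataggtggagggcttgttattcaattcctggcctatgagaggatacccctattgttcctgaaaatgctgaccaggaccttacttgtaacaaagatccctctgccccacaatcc

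The Vegfa window held 2 GC boxes and no hypoxia-inducible factor core. RefSeq gives Vegfa a second start inside the gene, at position 46025163, 7206 bases from the annotated gene start. Its window is not printed and lies within the gene body. It held 1 ACGTG core at -211 to -207, 1 GCGTG core at -218 to -214 and 1 GC box. Whether this start is used in the grafts was not tested. The Kdr window held 2 GCGTG cores, at positions -131 to -127 and -89 to -85 from the start site, and 2 GC boxes. The Flt1 window held 1 GCGTG core, 3 GC boxes, 2 ETS motifs at -129 to -124 and -53 to -48, and 1 cyclic AMP response element at -81 to -74. Tek held none of the 5 motifs, and Tie1, whose window is not printed, held 1 ETS motif. Among 32851 windows of the same length, 16.6% held ACGTG, 28.2% GCGTG, 32.7% GGGCGG, 29.5% AGGAAG and 1.55% TGACGTCA, so the response element of Flt1 was the least common of these matches. A match is a run of letters and no measure of binding.

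Values below are normalised counts (CPM, reads of a gene as a share of its library's total, scaled between libraries with TMM factors). A log2 fold change compares inhibition with control, so that values above 0 are higher under inhibition. Library totals lay between 14477277 and 20972494 counts. In edgeR's quasi-likelihood test with Benjamini-Hochberg adjustment, 6 of the 15666 genes (0.0383%) had an adjusted p under 0.05, and 0 of the 10 vessel genes were among them. At an unadjusted edgeR p under 0.05, 4 of the 10 were higher under inhibition, against 8.36% of all genes, and 0 were lower, against 7.00%. DESeq2 called 2 of the 10 higher, Kdr and Cdh5, against 2.23% of all genes, and 0 lower, against 1.23%. All 3 inhibition grafts lay above all 3 controls for 4 of the 10, Kdr, Tie1, Pecam1 and Cdh5, against 10.2% of all genes, and for 0 of the 10 did they lie below, against 11.0%. The 10 genes were chosen with results of these data known, so these counts describe them and carry no test of the group. In a whole graft, a difference in the number of endothelial cells and a difference in RNA per cell cannot be told apart.

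The labels were checked against marker genes. Melanocyte genes of B16F10 summed to between 23898 and 32089 CPM in controls and between 31404 and 36743 CPM under inhibition, with Pmel and Tyrp1 at mean levels of 4041 and 7116 CPM in controls. All 27 endothelial genes of a list that holds none of the 10 were detected and tested, summing to between 528 and 626 CPM in controls and 616 and 714 CPM under inhibition. Of these sums the gene Eng alone held between 276 and 330 CPM in controls and between 286 and 350 CPM under inhibition. Tissue around the tumour had been trimmed away according to the design text, yet genes of tongue tissue were present and uneven: 14 of 14 skeletal muscle genes were tested, summing to between 842 and 1950 CPM in controls and between 2315 and 4123 CPM under inhibition, and 11 of 12 squamous epithelium genes to between 1262 and 2804 and between 1611 and 5009 CPM. Connective tissue genes (12 of 12) summed to between 795 and 1283 CPM in controls and between 1516 and 2058 CPM under inhibition. Muscle and connective tissue hold vessels of their own, and both sums were higher in every inhibition graft than in any control, as were 4 of the 10 genes (Kdr, Tie1, Pecam1 and Cdh5). The part of these tissues in the results was not tested. Values from a fit that adds each graft's muscle level as a covariate are given beside the genes, but muscle level itself separates the groups, so that muscle and inhibition cannot be told apart. Median log2 fold changes were 1.41 for muscle, 1.08 for epithelium (0.67 without inhibition 2), 0.80 for connective tissue and 0.07 for melanocyte genes, and edgeR called 0 genes of these lists (9, 4, 10 and 0 passed 0.05 before adjustment, all as higher), while DESeq2 called 6, 2, 7 and 0, all higher.

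Vegfa mRNA was the most abundant of the 10 per length of exon and leaned lower under inhibition. It measured 194, 207 and 173 CPM in the controls and 107, 155 and 178 CPM under inhibition. Inhibition 1 stood far below the other 5 grafts, and inhibition 3 lay above control 3, so the groups overlapped. The means were 191 ± 17.3 and 147 ± 36.2 CPM (SD, n = 3 per group), and the log2 fold change was -0.38 ± 0.18 (standard error; edgeR adjusted p = 0.367). Without inhibition 1 the log2 fold change was -0.21, and with the muscle covariate -0.21. The gene (ENSMUSG00000023951) lies on chromosome 17 of GRCm38 from 46016993 to 46032369.

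Kdr, the receptor through which Vegfa acts on endothelium, had the largest fold change of the 10. It measured 12.3, 22.8 and 26.9 CPM in the controls and 35.6, 33.6 and 35.9 CPM under inhibition. The 3 inhibition grafts were nearly level with one another, and control 1 was the lowest of all. The means were 20.6 ± 7.56 and 35.0 ± 1.28 CPM (SD, n = 3 per group), 1.69 times apart, with a log2 fold change of 0.76 ± 0.26 (standard error; edgeR adjusted p = 0.261). DESeq2 gave an adjusted p of 0.0354, within a range from 0.00439 to 0.9998 over all settings tried. The log2 fold change was 0.48 without control 1 and 0.44 with the muscle covariate.

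Flt1, the high-affinity receptor for the same ligand, did not follow Kdr. It measured 25.3, 38.5 and 39.3 CPM in the controls and 31.3, 32.4 and 49.7 CPM under inhibition. Inhibition 1 and 2 lay below control 2 and 3, and inhibition 3 was the highest graft. The log2 fold change was 0.14 ± 0.24 (standard error; edgeR adjusted p = 0.809), and it turned to -0.04 without control 1 and to -0.12 without inhibition 3. Per length of exon, Flt1 to Kdr was 1.38, 1.13 and 0.978 in the controls and 0.587, 0.645 and 0.926 under inhibition. The 3 ratios under inhibition were all below the 3 in controls, a log2 difference of -0.71, and the exact two-sided permutation test gave p = 0.1, the smallest that 3 against 3 allows (0.3 adjusted over the 6 ratios compared). Vegfa to Kdr, per length of exon, was 33.4, 19.2 and 13.5 in the controls and 6.35, 9.72 and 10.5 under inhibition, also without overlap (log2 difference -1.25, exact permutation p = 0.1, 0.3 adjusted). Both of these ratios are to Kdr, whose own level already separated the groups, so they are not 2 independent results. The ratios without Kdr, of Vegfa to Flt1, Angpt2 to Tek, Tie1 to Tek and Angpt2 to Angpt1, overlapped between the groups. The soluble and membrane forms of Flt1 share 1 row of the table and could not be separated.

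**Figure D1:**
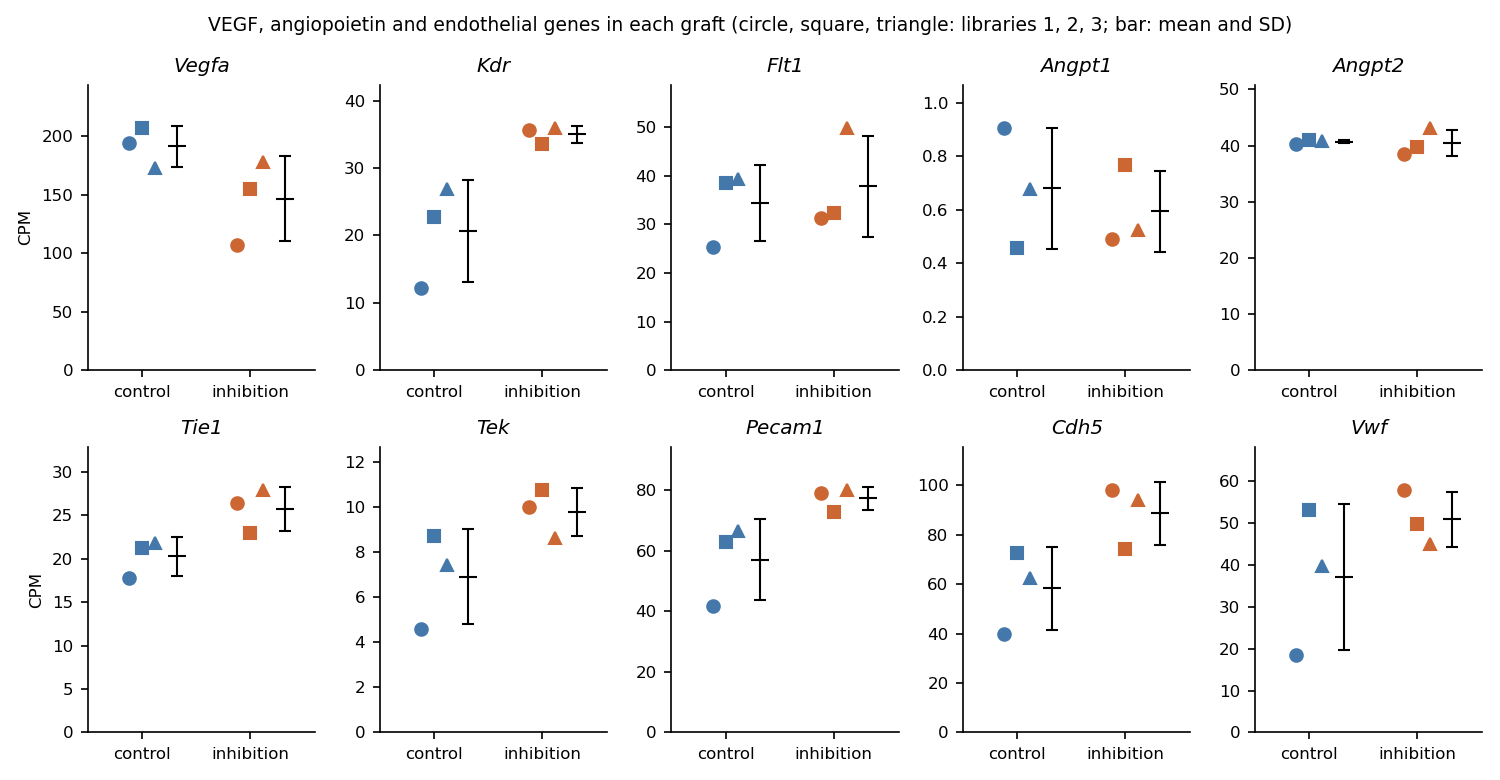
Level of each of the 10 genes in CPM (y axis, from 0) in the 3 control and 3 inhibition grafts; circles, squares and triangles are libraries 1, 2 and 3 of a group, and bars give the mean and SD. Kdr, Tie1, Pecam1 and Cdh5 are higher in every inhibition graft than in any control, Angpt2 is level in all 6, and Vegfa is lowest in inhibition 1 at 107 CPM.

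The 2 angiopoietins were unlike each other in level and alike in showing little difference between the groups. Angpt2 measured 40.4, 40.9 and 40.9 CPM in the controls and 38.5, 39.7 and 43.1 CPM under inhibition. It was the steadiest of the 10, with a log2 fold change of -0.01 ± 0.08 (standard error; edgeR adjusted p = 0.968) that turned to 0.00312 with upper-quartile scaling and to 0.06 with the muscle covariate. Angpt2 overlaps the gene Mcph1 on the opposite strand, and since the strand setting of the counting is not given in the sources used here, reads of the pair may have been mixed. Mcph1 had between 412 and 570 reads per library. Cdh5 and Angpt1 each overlap 1 antisense gene, which was at 0 reads in all 6 libraries. Angpt1 was near the limit of detection, with 15, 7 and 14 reads in the controls and 7, 15 and 11 under inhibition. Its log2 fold change of -0.19 ± 0.42 (standard error; edgeR adjusted p = 0.857) shows no difference detectable at this depth, and it turned to 0.05 without control 1 and to 0.36 with the muscle covariate. Per length of exon, Angpt2 was between 62.9 and 127 times as abundant as Angpt1 in the 6 grafts.

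Tie1 and Tek, the angiopoietin receptors, both leaned higher under inhibition. Tie1 measured 17.7, 21.2 and 21.8 CPM in the controls and 26.4, 22.9 and 27.9 CPM under inhibition. Its groups did not overlap, and its log2 fold change of 0.34 ± 0.12 (standard error; edgeR adjusted p = 0.242) had the smallest unadjusted edgeR p of the 10, 0.0185. It was 0.31 with the muscle covariate, the least moved by it of the genes that leaned higher. Tek measured 4.59, 8.72 and 7.45 CPM in the controls and 10.02, 10.8 and 8.62 CPM under inhibition. Inhibition 3 lay just below control 2, so these groups overlapped, and the log2 fold change was 0.50 ± 0.24 (standard error; edgeR adjusted p = 0.347). Without control 1 it was 0.27, and with the muscle covariate it turned to -0.14. The ratio of Tie1 to Tek per length of exon overlapped between the groups, at a mean of 2.95 ± 0.699 in controls and 2.55 ± 0.529 under inhibition (SD, n = 3 per group).

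The junction genes Pecam1 and Cdh5 were higher in each inhibition graft than in each control. Cdh5 measured 39.7, 72.4 and 62.6 CPM in the controls and 98.0, 74.2 and 94.1 CPM under inhibition. Control 2 and inhibition 2 nearly met, at 72.4 and 74.2 CPM. The log2 fold change was 0.61 ± 0.23 (standard error; edgeR adjusted p = 0.290), 0.39 without control 1 and 0.21 with the muscle covariate. DESeq2 gave Cdh5 an adjusted p of 0.0466, the lowest of its range over all settings, which ran to 0.9998.

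Pecam1 measured 41.8, 62.9 and 66.6 CPM in the controls and 79.1, 72.8 and 80.0 CPM under inhibition. As with Cdh5, control 1 stood apart at the low end. Its log2 fold change was 0.44 ± 0.16 (standard error; edgeR adjusted p = 0.275), 0.25 without control 1 and 0.20 with the muscle covariate. Vwf measured 18.5, 53.1 and 39.7 CPM in the controls and 57.9, 49.9 and 45.0 CPM under inhibition. Its groups overlapped, with control 2 above inhibition 2 and 3, and its log2 fold change of 0.46 ± 0.38 (standard error; edgeR adjusted p = 0.601) was 0.13 without control 1 and turned to -0.47 with the muscle covariate.

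Control 1 was the lowest graft for 7 of the 9 genes other than Vegfa, and inhibition 3 the highest for 5 of the 9. The median log2 fold change of these 9 was 0.44, against 0.00485 over all genes tested, 0.25 without control 1 and 0.21 with the muscle covariate. At an unadjusted edgeR p under 0.05, 4 of the 10 were higher. This count was 3 without control 1 and 0 without inhibition 1, without inhibition 3 or with the muscle covariate.

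**Figure D2:**
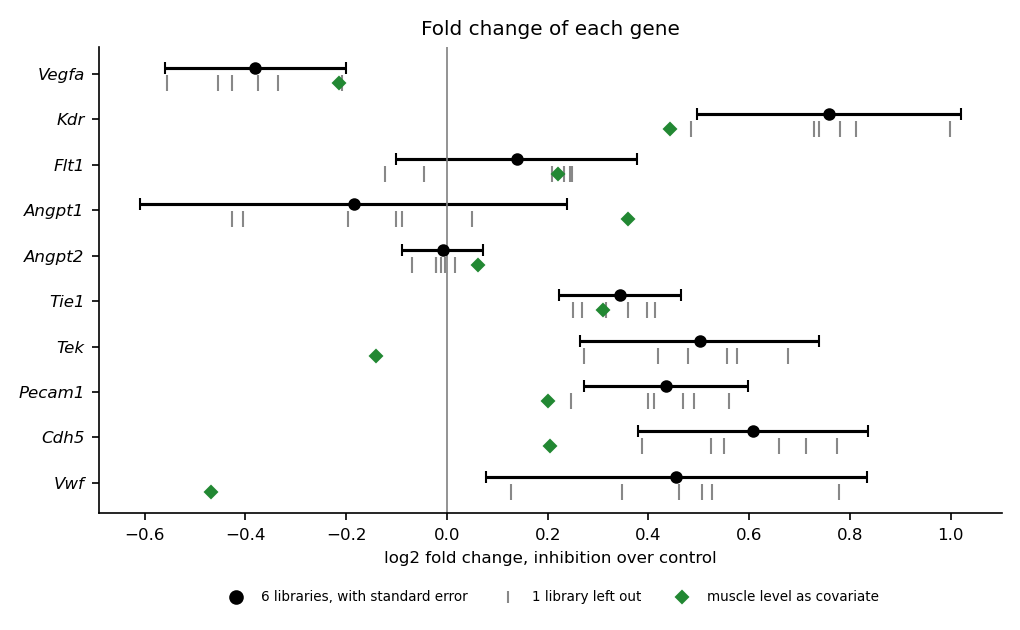
Log2 fold change of inhibition over control (x axis) for each of the 10 genes (y axis); black points with bars are the fit to 6 libraries with its standard error, grey ticks leave out 1 library each, and green diamonds add the muscle level as a covariate. Vegfa stays below 0 and Kdr, Tie1, Pecam1 and Cdh5 stay above 0 under all of these, while Tek and Vwf turn negative with the covariate.

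Levels of different genes were set side by side per kilobase of exon in GENCODE M21, averaged over the 6 grafts. Vegfa led with 39.5 CPM per kilobase (25.0 to 48.3), followed by Cdh5 with 17.5 (9.45 to 23.3). Angpt2 and Pecam1 came next and could not be ordered, at 11.0 (10.4 to 11.7) and 10.8 (6.71 to 12.8) CPM per kilobase. Tie1 had 4.68 (3.61 to 5.67), and Kdr, Vwf and Flt1 overlapped at 3.08, 2.74 and 2.67 CPM per kilobase. Tek had 1.77 (0.973 to 2.28) and Angpt1 0.122 (0.0875 to 0.174). On GRCm38 the genes other than Vegfa lie at chr5:75932827-75978458 (Kdr), chr5:147561604-147726011 (Flt1), chr15:42424723-42676977 (Angpt1), chr8:18690263-18741562 (Angpt2), chr4:118471191-118490061 (Tie1), chr4:94739289-94874976 (Tek), chr11:106654217-106750628 (Pecam1), chr8:104101625-104144511 (Cdh5) and chr6:125546774-125686679 (Vwf). The exon length joins the exons of all annotated transcripts, so these levels are lower where a long exon is rarely used.

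Vegfa and vessel content leaned in opposite directions, and their ratio separated the groups. Vessel content was taken as the mean log2 CPM of the 27 endothelial genes outside the 10, so that the ratio within a library does not depend on scaling between libraries. Relative to the control mean, this content was -0.29, 0.19 and 0.11 in the controls and 0.26, 0.20 and 0.41 under inhibition. The groups came closest between control 2 and inhibition 2, and control 1 had the least content. The log2 level of Vegfa less this content was 4.65, 4.26 and 4.08 in the controls and 3.24, 3.83 and 3.83 under inhibition. All 3 inhibition grafts lay below all 3 controls, with a difference of -0.70 on the log2 scale, 1.62 times lower, between means of 4.33 ± 0.289 and 3.63 ± 0.340 (SD, n = 3 per group). The exact two-sided permutation test gave p = 0.1, the smallest this design allows. Vegfa against vessel content ran from a difference of -0.50 without inhibition 1 to -0.82 without control 3 and was -0.97 with Pecam1, Cdh5 and Vwf in place of the list. With the muscle level as a covariate, an alternative added after seeing the data, it was -0.31. Vessel content differed by 0.29 between the group means without overlap, so a gene level in CPM is lower on this scale by that much. Of all genes tested, 29.9% lay lower relative to vessel content in every inhibition graft than in any control, and 2.76% lay higher, so the separation of Vegfa on this scale was a common one.

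**Figure D3:**
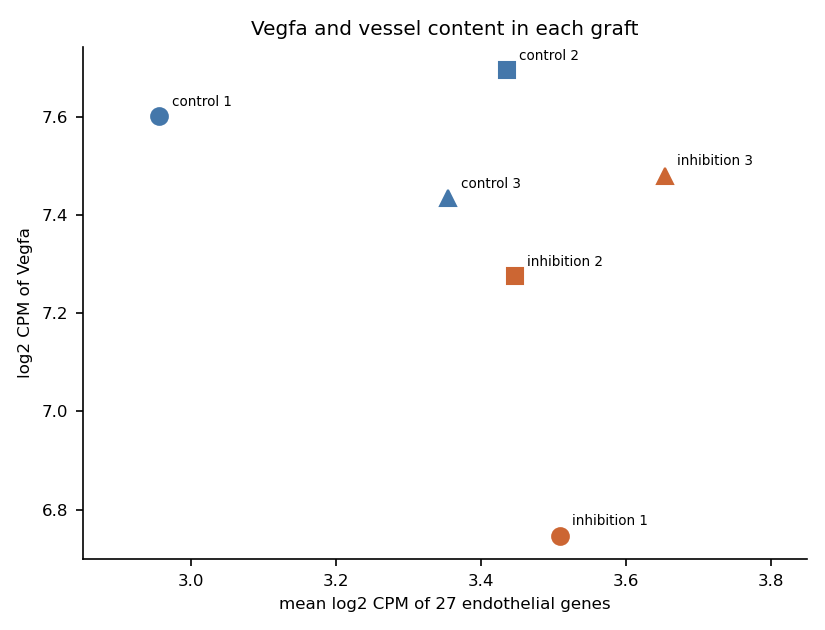
Log2 CPM of Vegfa (y axis) against the mean log2 CPM of 27 endothelial genes (x axis) in each graft; colour and label give the group and library. Control 1 has the least vessel content at 2.96, inhibition 1 the least Vegfa at 6.75, control 2 the most Vegfa and inhibition 3 the most vessel content.

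Set against the same vessel content, Kdr and Cdh5 stayed higher in every inhibition graft, Angpt2 was lower, and the groups of the other 6 genes overlapped. Kdr stood at 0.67, 1.08 and 1.40 log2 units above the content in controls and at 1.65, 1.63 and 1.52 under inhibition, a difference of 0.55 with no overlap. Cdh5 also kept its groups apart, at 2.36, 2.74 and 2.62 against 3.11, 2.77 and 2.90, a difference of 0.35. Angpt2, level in CPM, was lower per vessel content in each inhibition graft, at 1.76, 1.87 and 1.78 against 1.92 to 2.38 in controls, a difference of -0.30. The differences of Tie1 (0.06), Pecam1 (0.18), Tek (0.25), Vwf (0.29), Flt1 (-0.16) and Angpt1 (-0.43) came with overlapping groups. The difference of Angpt2 on this scale is about that of the vessel content itself, 0.29. Of the 9 genes, 2 (Kdr and Cdh5) lay higher without overlap, against 2.76% of all genes, and 1 (Angpt2) lay lower, against 29.9%. These are descriptions of 6 libraries, and no test was made of them.

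**Figure D4:**
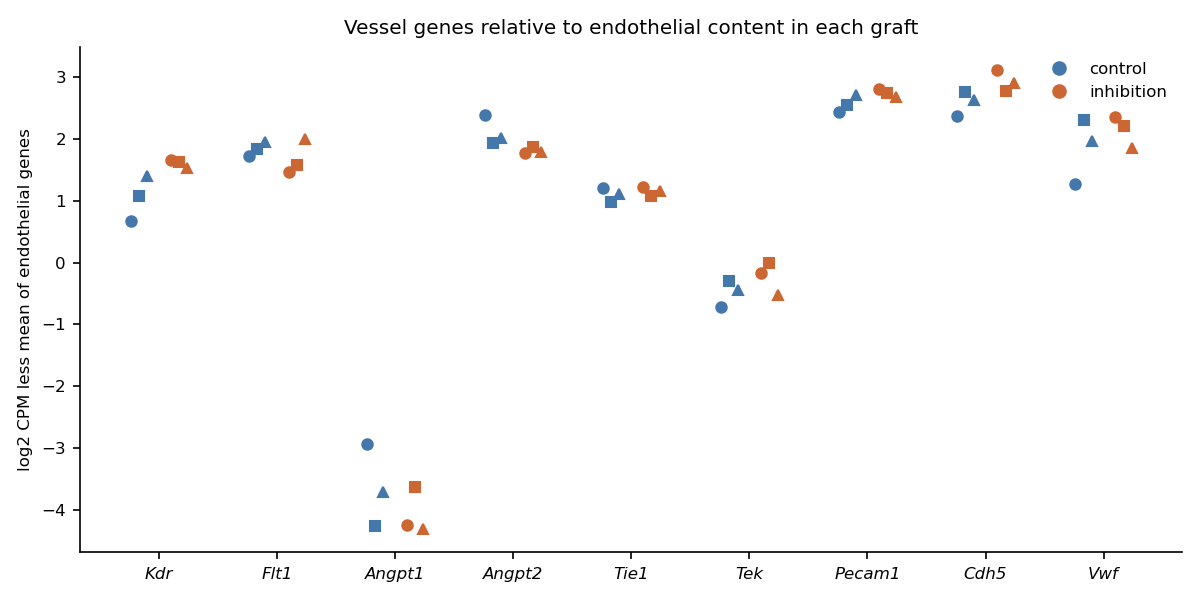
Log2 CPM of each of the 9 genes other than Vegfa, less the mean of 27 endothelial genes in the same graft (y axis), by gene (x axis); symbols are libraries 1, 2 and 3 of a group as circle, square and triangle. Kdr and Cdh5 are higher and Angpt2 lower in every inhibition graft than in any control.

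Further genes of the pathway were read from lists drawn up by gene name. Their counts stand beside shares over all genes tested. At an unadjusted edgeR p under 0.05, 8.36% were higher and 7.00% lower. DESeq2 called 2.23% higher and 1.23% lower. Groups did not overlap for 10.2% as higher and 11.0% as lower. Of 7 other VEGF ligands, receptors and co-receptors, all were tested; 6 leaned higher, the median log2 fold change was 0.20 (0.08 without inhibition 1), and edgeR and DESeq2 called 0 of them. Before adjustment edgeR's p was under 0.05 for 1, which was higher, and for 0 that were lower. That 1 was Flt4, the receptor of lymphatic and sprouting vessels, at 17.8 ± 3.69 CPM in controls and 23.7 ± 1.07 under inhibition (SD, n = 3 per group), and its log2 fold change was 0.41 (0.24 without control 1). Nrp1, a co-receptor that strengthens Kdr signalling, had a log2 fold change of 0.39 with overlapping groups (0.20 without control 1). Pgf, a ligand of Flt1 and not of Kdr, leaned the way of Vegfa: it measured 19.1, 19.5 and 14.3 CPM in the controls and 6.52, 14.8 and 12.7 under inhibition, a log2 fold change of -0.62 (edgeR adjusted p = 0.348; -0.36 without inhibition 1). Like Vegfa, Pgf was lowest in inhibition 1.

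Of 10 genes listed as partners of the angiopoietin and Tie pathway, 9 were tested and 7 leaned higher. Their median log2 fold change was 0.26 (0.03 without control 1, 0.16 without control 3, 0.10 without inhibition 3 and 0.01 with the muscle covariate). EdgeR called 0; before adjustment its p was under 0.05 for 3 that were higher and 0 that were lower. DESeq2 called 1, which was higher. Ptprb, the endothelial phosphatase that switches off Tek, measured 22.6, 24.6 and 26.2 CPM in the controls and 32.2, 30.5 and 32.7 CPM under inhibition, a log2 fold change of 0.38 (edgeR adjusted p = 0.172). Control 1 did not stand apart for this gene. Svep1, a matrix protein that binds Tie1, had a log2 fold change of 0.98 and was the gene DESeq2 called (edgeR adjusted p = 0.174). Angptl1, an angiopoietin-like secreted protein, had one of 0.80 (edgeR adjusted p = 0.273).

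Of 18 transducers downstream of the VEGF receptors, 17 were tested, with a median of 0.02. It ran from -0.01 without inhibition 1, where all 18 were tested, to 0.05 without control 3. Among the 17 edgeR called 0. Before adjustment 3 passed 0.05 as higher and 3 as lower, and DESeq2 called 1 in each direction. Most of these proteins serve many receptors in all cells of the graft. Rcan1, an inhibitor of calcineurin that Vegfa is known to induce in endothelium, had a log2 fold change of 0.56 (edgeR adjusted p = 0.186). Map2k1, a kinase of the MAP kinase cascade, and the kinase gene Src had log2 fold changes of -0.37 and -0.32 (edgeR adjusted p = 0.122 and 0.204).

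Genes of sprouting and of vessel types were compared next. Of 9 Notch genes, through which sprouting cells restrain their neighbours, 7 were positive with a median of 0.38 (0.16 without control 1, 0.21 without inhibition 3 and 0.14 with the muscle covariate); edgeR and DESeq2 called 0, and before adjustment edgeR's p was under 0.05 for 2 higher and 0 lower genes. Notch1 measured 17.8, 18.9 and 17.8 CPM in the controls and 24.7, 22.2 and 24.6 CPM under inhibition, a log2 fold change of 0.39 (edgeR adjusted p = 0.177). The Notch targets Hey1 and Heyl had log2 fold changes of 0.85 and 1.02 (edgeR adjusted p = 0.266 and 0.371), and Heyl turned to -0.01 with the muscle covariate.

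Of 14 genes of tip cells and tumour vessels, 11 were positive with a median of 0.12, and edgeR called 0. The median was 0.06 without inhibition 3, with 8 positive, and between 0.19 and 0.25 without control 2, control 3, inhibition 1 or inhibition 2. Before adjustment 3 passed 0.05 as higher and 0 as lower, and DESeq2 called 1 gene of the list higher. Pdgfb, with which sprouts recruit pericytes, was the gene DESeq2 called, with a log2 fold change of 0.71 (edgeR adjusted p = 0.203). Apln, a peptide of tip cells, had 0.58, and its receptor gene Aplnr, on the list of venous genes, had 0.96 (edgeR adjusted p = 0.276 and 0.332). For all 3 the groups did not overlap. The 3 negative genes of the tip cell and tumour vessel list were Esm1 (-0.20), Mcam (-0.33) and Ramp3 (-0.44), each with overlapping groups. Of the 14 tip cell and tumour vessel genes, 2 lay higher without overlap, against 10.2% of all genes, and 0 lay lower, against 11.0%. Of the 6 venous genes tested, 2 lay higher without overlap and 0 lower.

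Of 6 arterial genes tested, 6 were positive, with a median of 0.49 and 3 higher at an unadjusted edgeR p under 0.05, against 8.36% of all genes. The median was 0.33 without control 1 and 0.37 with the muscle covariate, each with 5 positive, and 0.71 without control 3. The count of 3 became 1 without inhibition 1 and 0 with the muscle covariate. The ephrin ligand gene Efnb2 measured 6.40, 8.65 and 8.95 CPM in the controls and 12.1, 11.8 and 11.5 CPM under inhibition (log2 fold change 0.56, edgeR adjusted p = 0.204). The gap junction genes Gja5 and Gja4 had 1.41 and 0.84 (edgeR adjusted p = 0.244 and 0.271) at levels under 4 CPM. Venous and capillary genes had medians of 0.04 and 0.11 over 6 each; the venous one was larger without any 1 library, up to 0.17 without control 3, and the capillary one turned to -0.02 without control 1 and -0.15 without inhibition 3 and was 0.17 without control 3 and 0.21 without inhibition 2. Of both lists 0 were higher or lower at an unadjusted edgeR p under 0.05. The filter was applied anew with each library left out, when 6 or 7 venous and 7 or 8 capillary genes were tested. Across these 3 lists edgeR and DESeq2 called 0 genes, and the difference between the lists was not tested.

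Of the 27 endothelial genes used for vessel content, 24 were positive, with a median of 0.27 (0.14 without control 1, 0.18 without inhibition 3 and 0.17 with the muscle covariate). EdgeR called 0, though 5 higher and 0 lower genes passed 0.05 before adjustment. DESeq2 called 1 gene as higher, the surface protein gene Cd34. The 3 negative genes were Calcrl (-0.34), Cyyr1 (-0.27) and Cldn5 (-0.07), each with overlapping groups. Over all genes tested, 51.0% were positive. Sox7, a transcription factor of endothelium, measured 2.23, 2.41 and 2.23 CPM in the controls and 4.13, 3.49 and 3.67 CPM under inhibition, a log2 fold change of 0.71 (edgeR adjusted p = 0.227). Mmrn2, a matrix protein of endothelium that binds Vegfa, had 0.44, and Egfl7, a secreted endothelial protein, had 0.52 (edgeR adjusted p = 0.228 and 0.267). The 3 controls were close together for Sox7, whereas control 1 was the lowest of the 6 grafts for Mmrn2 and Egfl7.

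Most listed genes of the cells that wrap vessels leaned the same way. Of 12 genes of pericytes and vascular smooth muscle, 9 were tested, 8 were positive and the median was 0.35 (0.30 without control 1 and 0.31 with the muscle covariate). EdgeR called 0, though 5 higher and 0 lower genes passed 0.05 before adjustment; DESeq2 called 3, all higher. Pdgfrb, the receptor for the product of Pdgfb, measured 34.2, 35.6 and 39.0 CPM in the controls and 49.2, 41.7 and 47.8 CPM under inhibition (log2 fold change 0.35, edgeR adjusted p = 0.186). Notch3, a Notch receptor of mural cells, had 0.61 (edgeR adjusted p = 0.176), and its groups did not overlap. Of the 9 genes, 4 lay higher without overlap, against 10.2% of all genes. Cspg4, Kcnj8 and Ndufa4l2 had log2 fold changes of 0.09, -0.05 and 0.21, each with overlapping groups. The part of connective tissue, whose genes had a median of 0.80, in these values was not tested. Of 10 secreted inhibitors of vessel growth, 9 were positive with a median of 0.16 (0.04 without control 1, 0.09 without inhibition 3 and -0.02 with the muscle covariate); edgeR and DESeq2 called 0, and before adjustment edgeR's p was under 0.05 for 2 higher and 0 lower genes. They included Sparc, a matrix protein, at 0.26 and Thbs2, a thrombospondin, at 0.53 (edgeR adjusted p = 0.223 and 0.318), the latter at -0.19 with the muscle covariate. Of 6 genes of activated endothelium, 4 were positive, with a median of 0.29 that ran from 0.12 without control 1 through 0.14 without control 3 and 0.16 without inhibition 2 to 0.52 without control 2, and was -0.14 with the muscle covariate; edgeR and DESeq2 called 0, and 1 passed 0.05 before adjustment as higher.

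**Figure D5:**
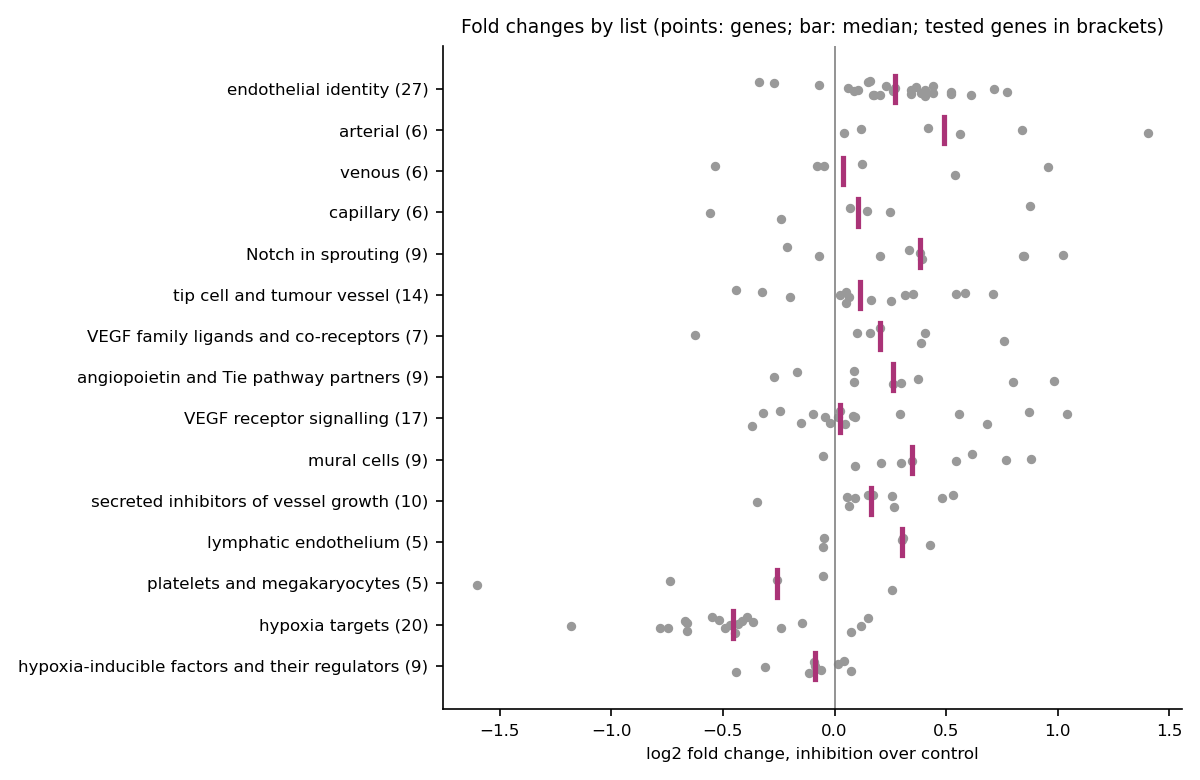
Log2 fold change of inhibition over control (x axis) for each tested gene of 15 lists (y axis, with the number tested in brackets); grey points are genes and bars are medians. Medians run from -0.46 for hypoxia targets to 0.49 for arterial genes.

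Vegfa leaned with the genes of the hypoxia response and away from vessel genes. Of 21 hypoxia targets, 20 were tested and 17 were negative, with a median of -0.46. EdgeR called 0, though 13 lower and 0 higher genes passed 0.05 before adjustment, against 7.00% and 8.36% of all genes. DESeq2 called 11, all lower, against 1.23% of all genes. Their summed level was between 7376 and 8215 CPM in controls and between 4851 and 6242 CPM under inhibition, lowest in inhibition 1 as for Vegfa. The median was -0.33 without inhibition 1 and -0.25 with the muscle covariate. The count of 13 lower genes before adjustment was 12 without inhibition 1, 9 without control 1 and 1 with the muscle covariate. Pdk1, a kinase that keeps pyruvate out of the mitochondria, measured 157, 141 and 161 CPM in the controls and 82.8, 116 and 114 CPM under inhibition, a log2 fold change of -0.55 (edgeR adjusted p = 0.166). Of 10 genes of the factors and their regulators, 9 were tested and 6 were negative, with a median of -0.09 (-0.17 without control 2 and 0.02 with the muscle covariate); edgeR called 0, DESeq2 1 lower, and 2 passed 0.05 before adjustment as lower. Hif1a had a log2 fold change of -0.11 and Epas1 one of -0.06 (edgeR adjusted p = 0.525 and 0.806), both above 0 with the muscle covariate. Vhl and Egln1, which bring about the destruction of the factors in oxygen, had log2 fold changes of -0.44 and -0.31 (edgeR adjusted p = 0.122 and 0.236), each with groups that did not overlap. Of the 9 genes, 3 lay lower without overlap, against 11.0% of all genes.

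Other cells that carry these genes were examined. Platelets also hold Vwf and Pecam1 products. Of 11 platelet and megakaryocyte genes 5 were tested; Gp1bb and Gp6 were at 0 in all 6 grafts, and the list summed to between 71.4 and 74.1 CPM in controls and 58.2 and 73.9 CPM under inhibition, most of it the widely expressed integrin gene Itgb3. Its median was -0.26 (-0.11 without control 3), and edgeR and DESeq2 called 0. Of 6 lymphatic genes, 5 were tested with a median of 0.30 (between 0.14 and 0.19 without control 1, control 3 or inhibition 2, and -0.13 with 0 positive with the muscle covariate) and sums of 46.5 to 66.7 and 63.9 to 77.5 CPM; Prox1, which defines that endothelium, had overlapping groups (8.27 to 8.47 and 7.23 to 9.32 CPM). Leukocytes also carry Pecam1, and some carry Flt1. Of 10 leukocyte genes 8 were tested and 8 were positive (median 0.60, 0.91 without control 2, -0.05 with the muscle covariate; 5 passed 0.05 in edgeR before adjustment and DESeq2 called 2, all higher), with sums of 86.8 to 162 and 175 to 183 CPM and Cd3e at or below 0.195 CPM. The part of platelets, lymphatic vessels and leukocytes in the levels of Vwf, Pecam1 and Flt1 was not tested.

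The genes most like Vegfa and Cdh5 were found among 9808 others with a mean of at least 10 CPM, by the root mean square difference of centred log2 CPM over the 6 libraries. Nearest to Vegfa were Stc1, a secreted glycoprotein hormone, and Plaur, the urokinase receptor, at 0.0666 and 0.0674, then Cyb5r1 (0.0736), Eif4ebp1 (0.0789), a repressor of translation, and Kdm7a (0.0869), a histone demethylase, against a range of 0.95 for Vegfa itself. Stc1 shared the low value of inhibition 1, at 7.08 CPM against 9.84 to 13.5 CPM in the other 5 grafts. Nearest to Cdh5 were Cdh13 (0.0603), another cadherin, Zeb1 (0.0947), a transcription factor, Cd93 (0.104), a receptor of endothelium, Mgp (0.108), a matrix protein, and Serpine2 (0.110), a protease inhibitor, against a range of 1.30. Cdh13 measured 16.3, 29.7 and 23.2 CPM in the controls and 39.0, 30.5 and 35.5 CPM under inhibition, so that control 1 was lowest and control 2 nearly met inhibition 2, as for Cdh5.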

How the data were processed

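The authors deposited unnormalised counts of reads for each Ensembl gene ID in each library, made from reads aligned with HISAT2 2.0 to mm10, per the submitters' processing notes. How reads were counted, with which annotation, filters and strand setting, is not given in the sources used here. Columns were assigned by name: those named for nociceptive denervation are the samples titled nerve inhibition. Symbols were found for 55141 of 55487 gene IDs, and coordinates and exon lengths came from GENCODE M21 on GRCm38, the assembly of mm10.

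Genes were kept with filterByExpr (count minimum 10, total minimum 15), scaled with TMM factors and tested over the whole table in edgeR 4.0.16 (R 4.3.3) by its quasi-likelihood test (robust, no covariate, Benjamini-Hochberg, called at an adjusted p under 0.05). The standard error is the log2 fold change divided by the root of F. Log2 CPM used a prior count of 2. The alternatives were limma-voom (limma 3.58.1), DESeq2 1.42.0, other scaling and filters, the replicate number as a block, the muscle level as a covariate, muscle and epithelium genes left out, an adjusted p under 0.1, and each library left out. The fit was tested on simulated data. Counts of members and medians of lists under each alternative were added after seeing the data. Named were the 10 members, up to 3 genes of smallest p from each of 21 other lists, and the 5 nearest in pattern to Vegfa and to Cdh5. Hif1a, Epas1, Pmel, Tyrp1, Acta1 and Krt5 were also named. Mcph1, Cd34, Itgb3, Gp1bb, Gp6, Prox1, Cd3e, Cspg4, Kcnj8, Ndufa4l2 and Eng were added after their values were seen. So were Esm1, Mcam, Ramp3, Calcrl, Cyyr1 and Cldn5. A further marker is not reported here. The members and lists were chosen with earlier results of these data known. The labels do not say that samples are separate animals, so every p-value here covers the spread among 6 samples, which may be technical.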

Additional observations from a re-analysis of the deposited data

How the results depend on the processing

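EdgeR's 6 calls became 1187 with no filter, 0 with limma-voom (1286 higher and 1043 lower genes passed 0.05 before adjustment), 541 with DESeq2, 0 with the muscle covariate (186 higher and 308 lower before adjustment) and 33 at an adjusted p under 0.1; with 1 library left out they ran from 0 to 217. The fit with the replicate number as a block called 14, and 0 of the 10 vessel genes were among them. Deviations of same-numbered libraries correlated at -0.180, 0.327 and 0.0865, and those of differently numbered ones at -0.386 to 0.295. With 3 libraries per group these values cannot settle whether same-numbered libraries were paired. The vessel median was 0.21 with the muscle covariate and ran from 0.25 to 0.51 with 1 library left out. Vegfa against vessel content was -0.31 with the muscle covariate and ran from -0.82 to -0.50 with 1 library left out; it stayed negative in these and with prior count 0.5, the median over genes and both other gene sets, and the gene-fit alternatives were not run on it. With no filter edgeR called Vegfa (-0.39), Kdr (0.75) and Pecam1 (0.42). Of 1088 values of 73 single genes under other settings, 23 changed sign, 4 of them with 1 library left out: Flt1 (range -0.12 to 0.25), Angpt1 (-0.43 to 0.0502) and Angpt2 (-0.0695 to 0.0157). Angpt2 was 0.00312 with upper-quartile factors. With the muscle covariate the changed signs were Tek (-0.14), Angpt1 (0.36), Angpt2 (0.0612), Vwf (-0.47), Heyl (-0.0140), Unc5b (-0.10), Btnl9 (-0.0720), Ccl2 (-0.0691), Thbs2 (-0.19), Ppbp (1.19), Pdpn (-0.12), Lyve1 (-0.17), Mmrn1 (-0.29), Hif1a (0.0205), Epas1 (0.21), Pmel (-0.24), Tyrp1 (-0.20) and Krt5 (-0.19); the cause was not tested. Angpt1, with 7 to 15 reads per library, and Gja5 are limited by depth.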
